A study of Capra hircus with 3 samples.

Results

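Complement is a cascade of plasma and tissue proteins that marks microbes and dying cells for uptake and can lyse membranes. In the classical pathway, C1q, a recognition molecule built from the products of C1QA, C1QB and C1QC, binds antibody or cell debris and activates the proteases C1r and C1s, which cleave C4 and C2. In the alternative pathway, factor B (CFB) forms the protease that cleaves the central component C3, factor I (CFI) inactivates the C3 and C4 fragments already deposited, and clusterin (CLU) holds back the terminal pathway. C1q is known to be made mainly by macrophages and C1r and C1s by fibroblasts and other stromal cells, and complement proteins are also secreted into milk.

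The complement components and regulators described here are C3, CFB, CFI, C1QA, C1QB, C1QC, C1R, C1S and CLU, chosen by name and found through their NCBI gene IDs. Of these 9 genes, 7 had deposited values, among 13023 protein-coding genes with values in all. The gene ID of C3 did not occur among the deposited loci and CLU had no symbol match in the gene table, so C3 and CLU were not analysed here. Each of the 7 genes came from 1 locus that no other entry overlapped.

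The samples were mammary gland tissue of 5 healthy Laoshan dairy goats, a Chinese dairy breed, which were 4 years old, in the third lactation, untreated and sampled by surgery under anaesthesia. The RNA of the 5 goats was pooled in equal parts into 1 library at each of 3 stages, early lactation (10 days after parturition), peak lactation (90 days) and late lactation (210 days). The spread between goats cannot be seen in such pools, so no difference below has a replicate check, a standard error or a p-value. The values are FPKM (fragments scaled to transcript length and to the mapped reads of the library), which allow levels to be compared between genes, and the number of reads behind each FPKM is unknown.

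The assignment of the peak and late libraries is in doubt. For most annotated lncRNA genes that could be matched, the direction between these libraries by their labels was opposite to that between the libraries of the same stages in the study's own supplementary list. The libraries are therefore named by their labels (peak-labelled, late-labelled), and exchanging these labels turns every direction between them, while the early-labelled library stays in place. On the FPKM scale a median log2 ratio was taken over the protein-coding genes reaching 1 FPKM in each library of a comparison. It was -0.03 for peak over early, -0.01 for late over early and 0.03 for late over peak. The summed FPKM of protein-coding genes differed more, at 478221, 275836 and 421182 in the early-, peak- and late-labelled libraries. One short locus without a gene ID took 29.99%, 46.0% and 29.9% of the summed FPKM in the early-, peak- and late-labelled libraries. The labelled tissue was checked by the luminal epithelial genes, of which EPCAM, a surface protein of epithelial cells, had 77.8, 60.01 and 76.4 FPKM and CSN3, the gene of kappa-casein, 25445, 3989 and 27391 FPKM in the same order.

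All 7 complement genes with values had the same order of levels, highest in the peak-labelled library, intermediate in the early-labelled library and lowest in the late-labelled library. This order was found in 30.6% of all protein-coding genes. Between the peak- and the late-labelled libraries each of the 7 genes differed more than 2-fold, from 2.89-fold for C1S to 26.5-fold for CFI. In the order named and with at least that 2-fold difference were 14.8% of all protein-coding genes. Since the comparisons share libraries, these counts are not independent of each other.

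**Figure D1:**
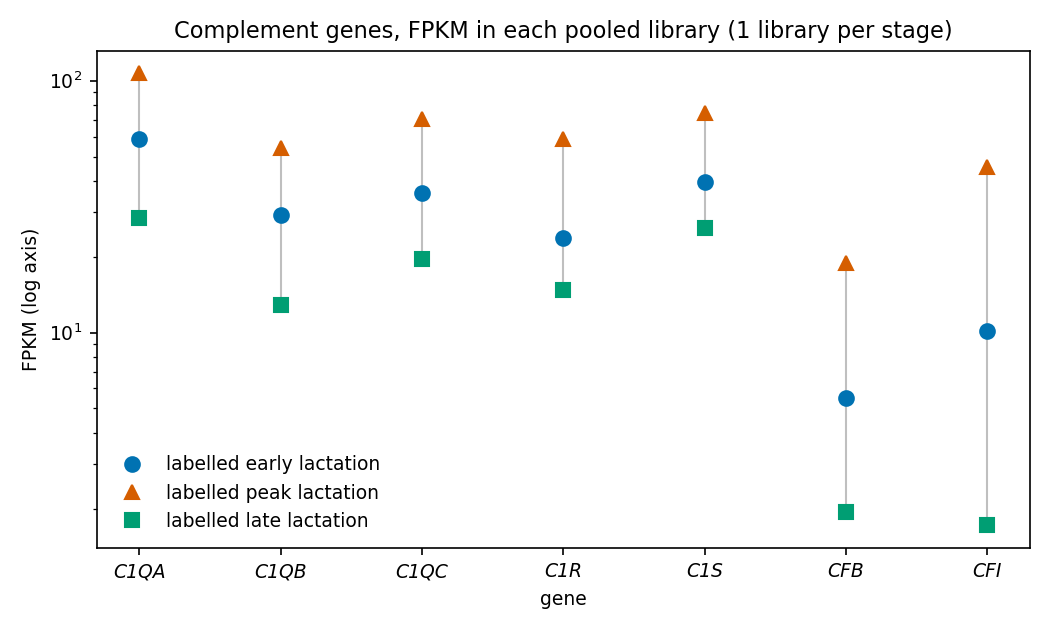
FPKM of the 7 complement genes with values (log axis), with 1 point per pooled library: circles for early-labelled, triangles for peak-labelled and squares for late-labelled lactation; the grey lines join the points of a gene. Every triangle lies above its circle and every circle above its square, and CFI spans the widest range, from 1.72 to 45.5 FPKM.

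The C1q chain genes were among the more abundant transcripts of the gland. C1QA had 58.5 FPKM in the early-labelled, 107 FPKM in the peak-labelled and 28.4 FPKM in the late-labelled library. C1QC, the gene of the C chain, had 36.0, 70.6 and 19.6 FPKM in the same order, and C1QB, that of the B chain, had 29.2, 54.3 and 12.9 FPKM. C1QA thus lay above 95.2%, 98.4% and 87.5% of the protein-coding genes listed above 0 in the respective libraries, and C1QA was the highest and C1QB the lowest of the 3 chains in every library.

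The 3 chain genes moved nearly in parallel. The peak-over-early ratio was 1.83 for C1QA, 1.86 for C1QB and 1.96 for C1QC, all just under 2-fold. The late-labelled library was lower than the early-labelled library by 2.06-fold for C1QA, 2.27-fold for C1QB and 1.84-fold for C1QC, and lower than the peak-labelled library by 3.77-, 4.21- and 3.61-fold. C1QA exceeded C1QB by 2.002-, 1.97- and 2.20-fold in the early-, peak- and late-labelled libraries, so their proportion changed by a factor of 1.12 while their levels changed by about 4-fold.

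C1R and C1S, the genes of the proteases that C1q activates, were expressed at similar levels to the chain genes. C1S had 39.8, 74.8 and 25.9 FPKM in the early-, peak- and late-labelled libraries, and C1R had 23.6, 58.8 and 14.8 FPKM. The peak-over-early ratio was 2.49 for C1R and 1.88 for C1S. Their late-labelled levels were 1.60- and 1.54-fold below the early-labelled ones, the smallest such differences among the 7 genes. Expressed as a proportion, C1S exceeded C1R by 1.68-fold in the early-labelled, 1.27-fold in the peak-labelled and 1.75-fold in the late-labelled library.

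CFB and CFI had lower levels and the widest ranges. CFB had 5.49 FPKM in the early-labelled, 18.8 FPKM in the peak-labelled and 1.95 FPKM in the late-labelled library, ratios of 3.43 for peak over early and of 9.68 between the peak- and late-labelled libraries. CFI had 10.2, 45.5 and 1.72 FPKM, with 4.48-fold more in the peak-labelled and 5.92-fold less in the late-labelled than in the early-labelled library. CFI exceeded 95.1% of the protein-coding genes above 0 in the peak-labelled library and 18.5% of them in the late-labelled library. Relative to each other, CFI was above CFB by 1.85-fold in the early-labelled and 2.42-fold in the peak-labelled library, and below CFB at a CFI/CFB proportion of 0.883 in the late-labelled library.

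Set against all protein-coding genes, 3 of the 7 complement genes (CFB, CFI and C1R) were at least 2-fold higher in the peak- than in the early-labelled library, where 10.9% of 13020 genes were higher and 6.80% lower by this rule. The median log2 ratio of the 7 genes was 0.97, against 0.01 over all protein-coding genes above 0 in either library. C1QC, at 1.96-fold, lay just under the threshold. Late over early, 4 of the 7 genes (CFB, CFI, C1QA and C1QB) were at least 2-fold lower, against 6.74% of 13004 genes, and 1.97% were higher. Their median log2 ratio was -1.04, against -0.03 over all genes.

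Late over peak, 7 of 7 genes were at least 2-fold lower, against 17.4% of 13015 genes, and 8.56% were higher. The median log2 ratio of the 7 genes was -1.99, against -0.03 over all genes. Among the 12466 protein-coding genes with at least 1 FPKM in either of these libraries, the log2 ratio of CFI, -4.73, had only 0.802% of genes below it and that of CFB, -3.27, had 1.68% below it. The C1q chain genes and C1R lay between -2.07 and -1.85 on this log2 scale, with 5.21% to 6.37% of genes below them, and C1S lay at -1.53 with 9.10% below it. With the FPKM divided by the summed FPKM of the protein-coding genes of each library, the median of all genes moved to 0.77 for peak over early, to 0.17 for late over early and to -0.58 for late over peak, and 7, 2 and 7 of the 7 genes were then at least 2-fold apart.

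**Figure D2:**
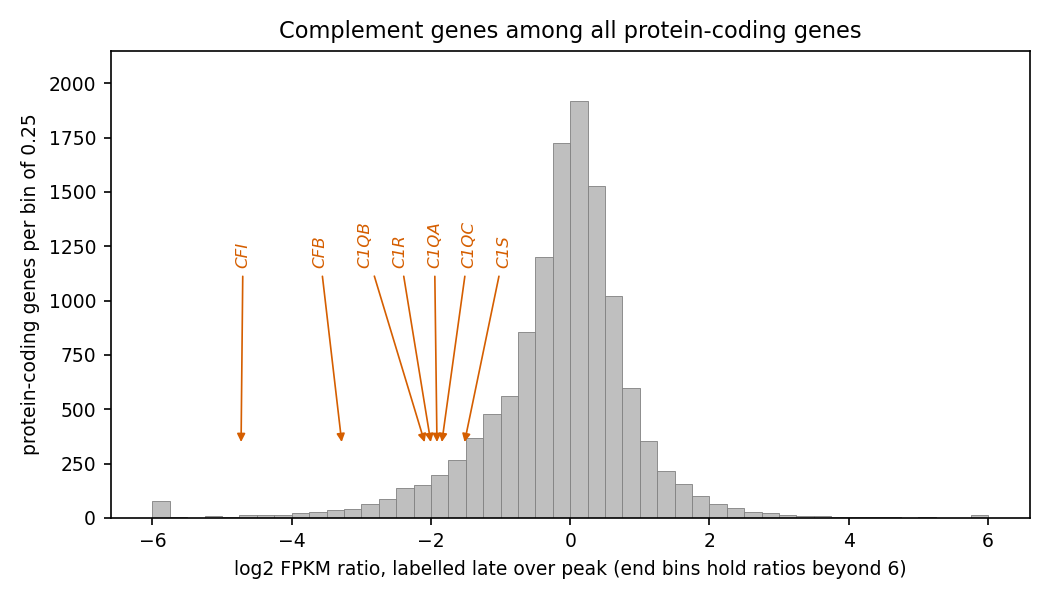
Histogram of the log2 ratio of FPKM, late-labelled over peak-labelled, for 12466 protein-coding genes with at least 1 FPKM in either library (bins of 0.25); arrows mark the 7 complement genes. All arrows lie left of zero, from C1S at -1.53 to CFI at -4.73, in the lower tail of the distribution.

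The other genes of the complement pathway did not share this pattern as a group. Of 41 further complement components, regulators and receptors listed for this purpose, 23 had values. Peak over early, 2 of the 23 were at least 2-fold higher and 5 lower, against 10.9% and 6.80% of all protein-coding genes. The median log2 ratio was -0.04. Late over early, none was higher and 5 were lower, against 1.97% and 6.74% of all genes, with a median of -0.36. Late over peak, 4 were higher and 8 lower, against 8.56% and 17.4% of all genes, with a median of -0.35. One of the genes counted as lower, C4BPB, a chain of the C4-binding protein, was listed at 0 in the late-labelled library. Over the 22 genes above 0 in every library the medians were -0.15, -0.35 and -0.17. Divided by the protein-coding sum, 8 of the 23 were higher and 3 lower in peak over early, so the direction of this count depended on the scaling. On that scale the median log2 ratio of all genes was itself 0.77.

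C2 and C7 were the further genes at least 2-fold higher in the peak- than in the early-labelled library. C2, the classical-pathway counterpart of factor B, had 1.48, 4.52 and 0.732 FPKM in the early-, peak- and late-labelled libraries. C7, a component of the membrane attack complex, had 6.95, 20.2 and 4.07 FPKM. Both had the order of levels of the 7 genes.

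Several genes of the later cascade and the lectin pathway, and CD59, were at least 2-fold lower in the peak- than in the early-labelled library. C9, which forms the pore of the membrane attack complex, was the most abundant of the further genes and had 115 FPKM in the early-labelled, 17.8 FPKM in the peak-labelled and 136 FPKM in the late-labelled library, a 6.45-fold lower level in peak than in early. C5, whose cleavage starts pore assembly, had 3.26, 0.690 and 3.49 FPKM. C6, another component of the pore complex, had 2.37, 0.423 and 1.86 FPKM as the sum of 2 loci. MASP1, a lectin-pathway protease gene, had 46.9, 14.3 and 23.6 FPKM as the sum of 5 loci with the same coordinates, so reads may have been split among them. CD59, which blocks the pore on host cells, had 46.1, 21.2 and 49.8 FPKM.

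The alternative-pathway partners of factor B named here, and several other genes, stayed within 2-fold in all 3 comparisons. CFD, the protease that activates factor B, had 23.8, 19.4 and 21.4 FPKM. CFP, the gene of properdin, which stabilises the alternative convertase, had 1.65, 1.60 and 1.26 FPKM. C1QBP, which encodes a mitochondrial protein that can bind C1q, had 25.4, 24.8 and 24.8 FPKM. MASP2, COLEC12, CD55, CR2 and CD93 also stayed within 2-fold in each comparison.

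Complement receptor genes were mostly low, and each was lowest in the late-labelled library. Of 7 receptor genes, 6 were highest in the peak-labelled library, against 43.7% of all protein-coding genes, and 5 were at least 2-fold lower in late than in peak, against 17.4%. C3AR1, the receptor of the C3a fragment, had 1.54, 2.54 and 0.944 FPKM, and C5AR1, a receptor of C5a, had 2.36, 1.96 and 0.781 FPKM. ITGAM and ITGAX, the alpha chains of the phagocytic C3 receptors, had 2.29, 2.29 and 0.973 FPKM and 1.02, 1.44 and 0.466 FPKM. ITGAM, at 1.002-fold, was practically level between the peak- and early-labelled libraries, although it is counted among the 6. C5AR2, another receptor of C5a, had 3.65, 5.004 and 2.44 FPKM. ITGB2, the beta chain shared by leukocyte integrins, had 11.3, 14.5 and 9.07 FPKM and stayed within 2-fold.

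**Figure D3:**
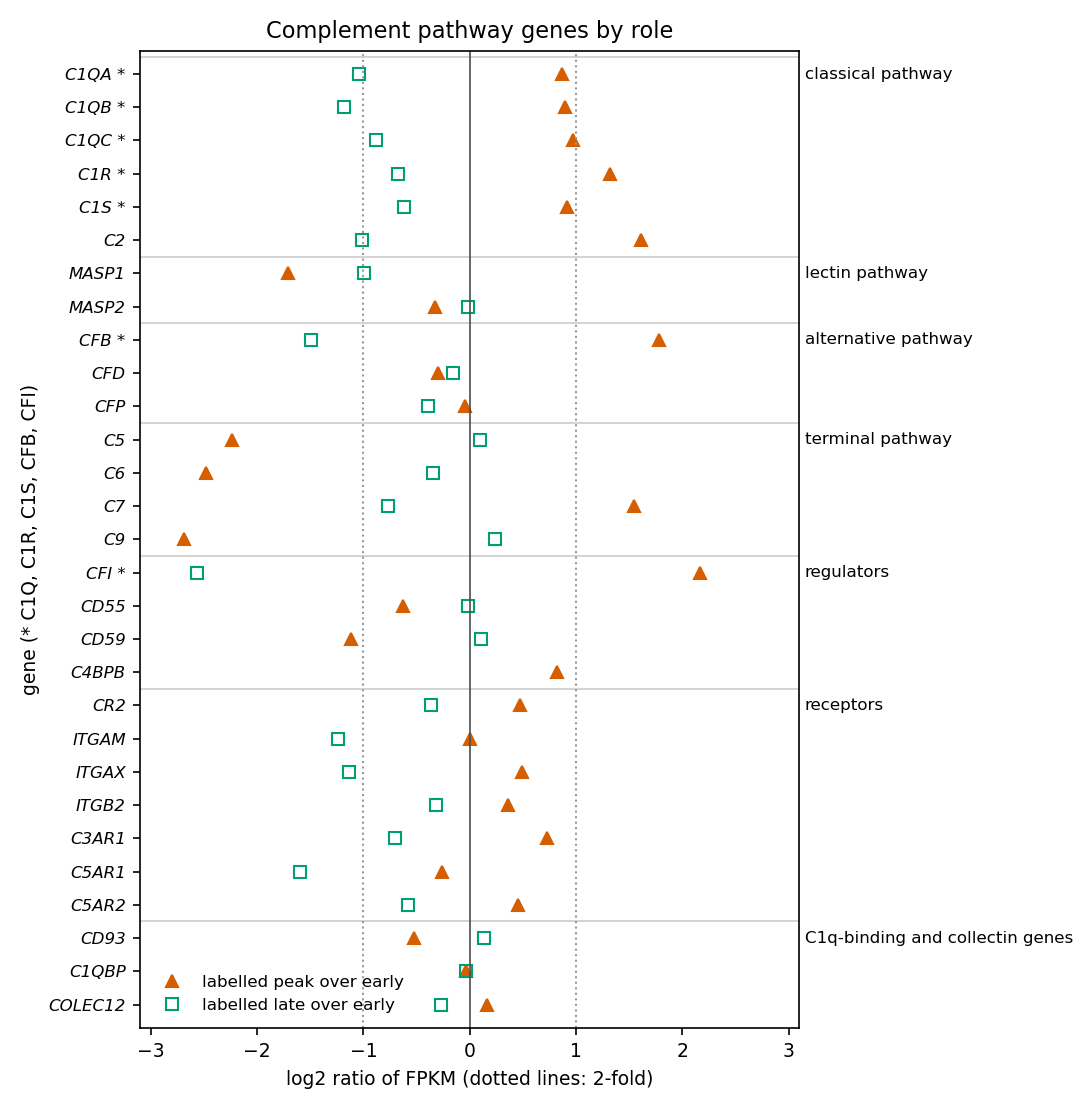
Log2 ratio of FPKM over the early-labelled library for 29 complement genes grouped by role, triangles for peak-labelled and open squares for late-labelled; dotted lines mark 2-fold, asterisks the 7 genes chosen by name, and C4BPB has no square because it was listed at 0 in the late-labelled library. All 6 classical-pathway genes have the triangle to the right of zero and the square to the left, whereas C5, C6 and C9 have the triangle at -2.24, -2.49 and -2.69.

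The genes of C1q, of C1r and C1s, and of CFB with C2 each lie side by side, and their neighbours were compared with them. C1QB, C1QC and C1QA are listed in this order on scaffold NW_005100623.1, from 31967953 to 31994467, a span of 26515 nt, with 8010 and 4573 nt between them. The assembly of these scaffolds is not named in the deposited values, and exons and introns were not analysed here. No other protein-coding gene with values lay within 100 kb of them.

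C1R (243705 to 254797) and C1S (272962 to 284295) lie 18164 nt apart on scaffold NW_005100676.1. The 4 protein-coding genes within 100 kb that reached 1 FPKM had log2 ratios of late over peak between -0.18 and 0.54, against -1.99 for C1R and -1.53 for C1S. One of them, PTPN6, a phosphatase gene of blood cells and epithelia, had 25.7, 23.8 and 25.1 FPKM. EMG1, a gene for ribosome assembly listed at the same locus as LPCAT3, had 23.7, 23.3 and 20.9 FPKM.

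CFB (44581 to 50928) and C2 (50953 to 62638) are separated by 24 nt on scaffold NW_005100920.1. The proportion of CFB to C2 was 3.71, 4.17 and 2.66 in the early-, peak- and late-labelled libraries. NELFE, a gene of the negative elongation factor that ends next to CFB at 44579, had 17.3, 16.7 and 16.7 FPKM, a log2 ratio of -0.0048 for late over peak against -3.27 for CFB. Of the 10 protein-coding genes within 100 kb that reached 1 FPKM in either of these libraries, NELFE among them, 8 stayed within 2-fold between these libraries. Most protein-coding genes did so too, since 17.4% of all were at least 2-fold lower and 8.56% higher in late than in peak. The exceptions among the 10 were SLC44A4, a choline transporter family gene with 1.22, 3.40 and 0.450 FPKM, and ZBTB12 with 0.728, 1.55 and 0.269 FPKM, both in the order of CFB.

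CFI is listed on scaffold NW_005100691.1 from 4172067 to 4215512. Of its 4 neighbours with at least 1 FPKM, 3 stayed within 2-fold between the late- and peak-labelled libraries, among them PLA2G12A, a secreted phospholipase gene, with 10.3, 10.4 and 12.8 FPKM. Of all protein-coding genes, 17.4% were at least 2-fold lower and 8.56% higher in late, so most stayed within 2-fold. MCUB, which encodes a subunit of the mitochondrial calcium uniporter, had 4.06, 4.83 and 2.30 FPKM. Within 10 kb of CFI, the loci XLOC_012045 and XLOC_012046, which have no gene ID, had 0.527, 1.65 and 0.195 FPKM and 0.534, 1.90 and 0.148 FPKM. Between C1QB and C1QC, the locus XLOC_004404 had 0.873, 2.47 and 0.276 FPKM, also in the order of the complement genes. Whether these loci belong to the transcripts beside them was not tested.

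**Figure D4:**
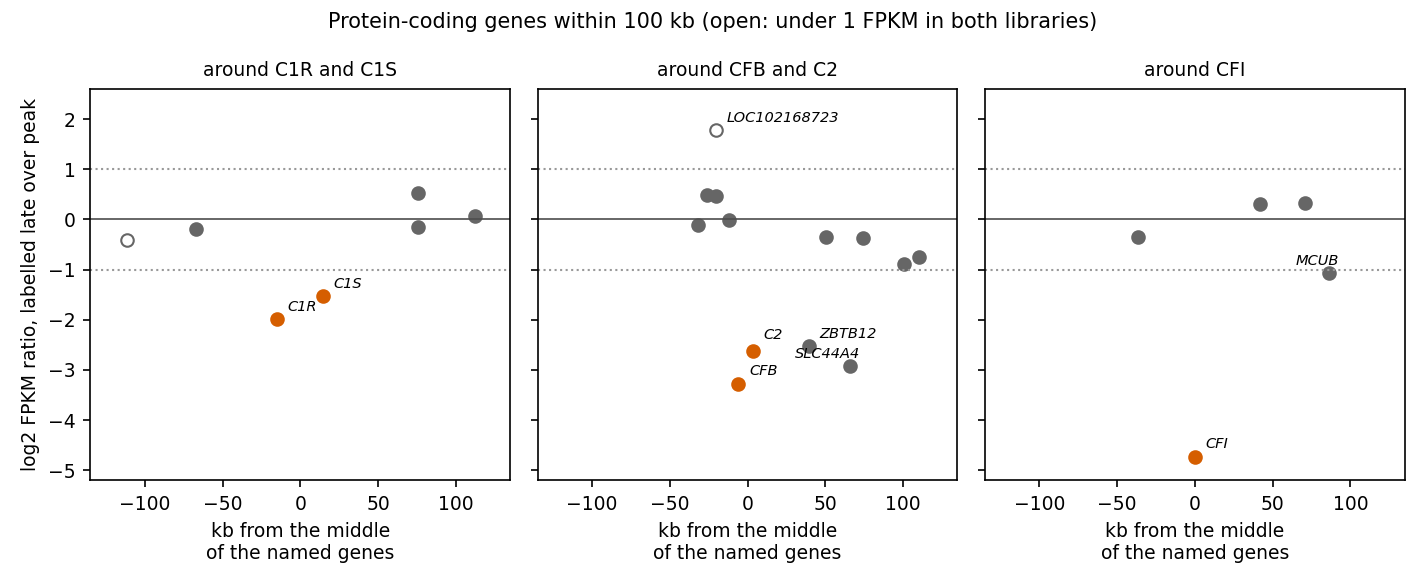
Log2 ratio of FPKM, late-labelled over peak-labelled, of protein-coding genes within 100 kb of C1R and C1S, of CFB and C2 and of CFI, against their distance in kb from the middle of the named genes; open circles are genes under 1 FPKM in both libraries and dotted lines mark 2-fold. The named complement genes (coloured) lie between -1.53 and -4.73, and most neighbours lie between the dotted lines, apart from labelled genes such as SLC44A4 at -2.92 and ZBTB12 at -2.53. Most of all protein-coding genes also stayed within 2-fold.

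Of the markers of macrophages, the known main source of C1q, CSF1R, AIF1, MRC1, CD68, MERTK and CD14 had the order of levels of the C1q genes, by differences that ranged widely, and MSR1 did not. This order was found in 30.6% of all protein-coding genes. In pooled tissue RNA, a change in the number of cells of a type cannot be told apart from a change in RNA per cell. Of 10 macrophage markers 7 had values, and their summed FPKM was 76.9, 101 and 48.6 in the early-, peak- and late-labelled libraries. Of these, 3 of the 7 were at least 2-fold lower in late than in peak, against 17.4% of all protein-coding genes. The median log2 ratio of the 7 was -0.89. CSF1R, the macrophage growth factor receptor, had 16.6, 25.6 and 7.55 FPKM, and AIF1, a macrophage actin-binding protein, had 20.3, 31.7 and 10.7 FPKM. Late over early, CSF1R was 2.20-fold lower, a larger difference than that of C1QA, and late over peak it was 3.39-fold lower, a smaller one. CD68, a lysosomal protein of macrophages, had 3.47, 3.88 and 2.098 FPKM. The proportion of C1QA to CSF1R was 3.53, 4.18 and 3.76, a variation of 1.19-fold across libraries between which C1QA itself varied 3.77-fold. This was the steadiest of the proportions of a C1q gene to a macrophage marker that were computed. The proportions of C1QA to C1QB and of C1R to FBLN1 varied less, by 1.12- and 1.17-fold. Those of C1QB and C1QC to CSF1R varied 1.24- and 1.27-fold, and that of C1QA to AIF1 varied 1.27-fold. Among macrophage markers, proportions were computed only to CSF1R and AIF1, whose late-over-peak log2 ratios, -1.76 and -1.56, were nearest to the -1.91 of C1QA. None was computed to MRC1, CD68 and MERTK, with log2 ratios of -1.33, -0.89 and -0.43. Nor was one computed to CD14 or MSR1, which differed from the C1q genes in size or order. CD14, a receptor of bacterial lipopolysaccharide, was nearly level with 12.4, 12.5 and 11.3 FPKM, and MSR1, a scavenger receptor, was highest in the early-labelled library with 9.95, 6.64 and 6.45 FPKM. None of the 7 was listed at 0, and CD163, MARCO and FCGR3A were not analysed here.

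Fibroblast markers were divided. All 10 had values, their summed FPKM was 764, 723 and 626, and none was listed at 0. DCN, the gene of the matrix proteoglycan decorin, had 131, 254 and 106 FPKM, and PDGFRA, a receptor of fibroblasts, had 13.7, 28.0 and 11.3 FPKM. FBLN1, the gene of fibulin-1, had 26.0, 62.2 and 18.3 FPKM, and the proportion of C1R to FBLN1 was 0.908, 0.946 and 0.807, a variation of 1.17-fold. The proportions of C1R to DCN and to PDGFRA varied more, by 1.65- and 1.60-fold. COL3A1, a fibrillar collagen gene, went the other way with 255, 123 and 220 FPKM. So did COL1A1 (78.2, 46.3 and 59.0 FPKM), COL1A2 (138, 65.8 and 106 FPKM) and LUM (47.6, 32.1 and 40.2 FPKM). The proportions of C1R were computed only to FBLN1, DCN and PDGFRA, which were all highest in the peak-labelled library. The part of macrophage and fibroblast content in the levels of the complement genes was not tested.

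**Figure D5:**
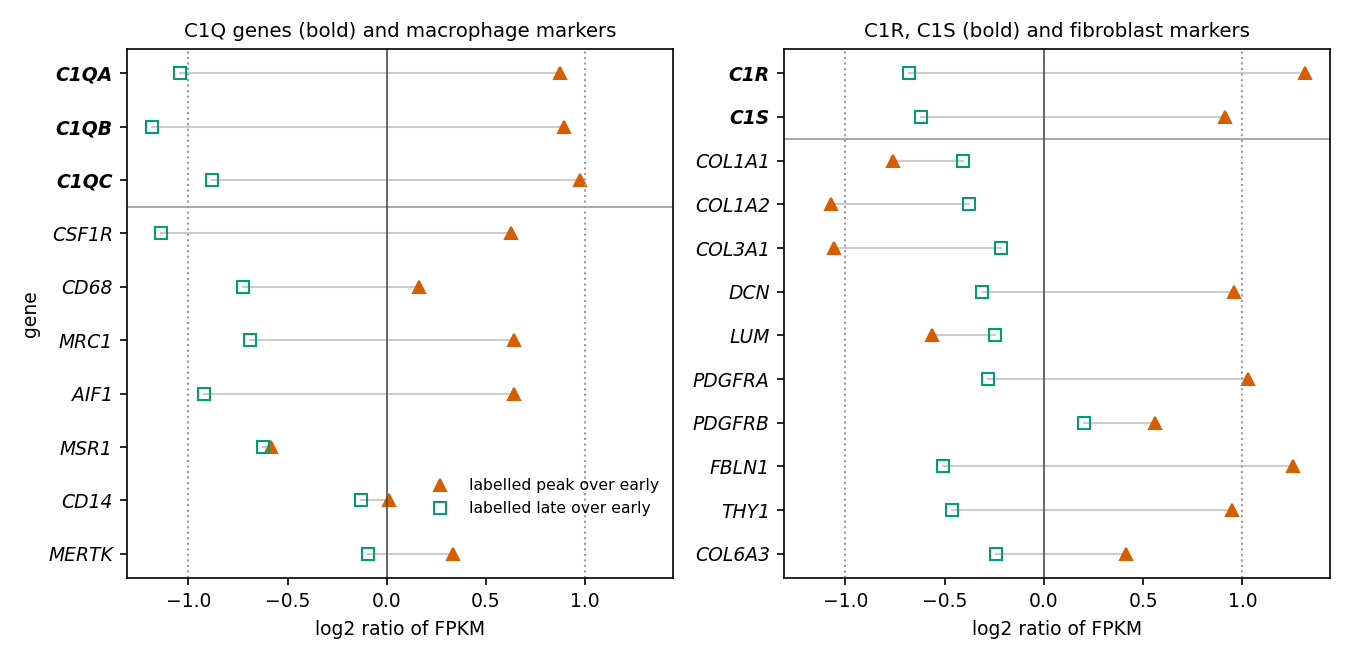
Log2 ratio of FPKM over the early-labelled library for the C1q genes with 7 macrophage markers (left) and for C1R and C1S with 10 fibroblast markers (right), triangles for peak-labelled and open squares for late-labelled; dotted lines mark 2-fold. The C1q genes have triangles between 0.87 and 0.97 and squares to the left of zero. CSF1R, MRC1 and AIF1 have triangles between 0.62 and 0.64 and squares to the left of zero. The triangles of MERTK, CD68 and CD14 lie at 0.33, 0.16 and 0.01, and that of MSR1 at -0.59. COL1A1, COL1A2, COL3A1 and LUM have both symbols to the left of zero.

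Markers of other cells differed in direction and size. Between the late- and peak-labelled libraries, 0 of 7 endothelial markers and 1 of 7 myoepithelial markers (OXTR, the oxytocin receptor, higher in late) differed 2-fold. By the same rule, 8.56% of all protein-coding genes were higher and 17.4% lower in late. Of the 9 luminal epithelial markers with values, 3 were at least 2-fold higher in late and 1, LALBA, was listed at 0 in the late-labelled library against 70053 FPKM in the early-labelled one. Of 5 neutrophil markers, S100A9, a calcium-binding protein of neutrophils, had 4.84, 13.8 and 1.84 FPKM. MMP9, a matrix protease gene, had 0.867, 0.924 and 0.0790 FPKM, under 1 FPKM in every library. Both had the order of the complement genes and larger late-over-peak differences, 7.48- and 11.7-fold, than the C1q genes. CXCR2 had 1.02, 1.11 and 0.762 FPKM, in that order but within 2-fold. CSF3R was nearly level, with 2.47, 2.44 and 2.70 FPKM, and highest in the late-labelled library. S100A8 was listed at 0 in the late-labelled library, which is not read as low expression since LALBA was listed at 0 there too. The part of neutrophil content in the levels of the complement genes was not tested. Of the adipocyte markers, ADIPOQ, the adiponectin gene, had 15.1, 4.10 and 5.69 FPKM and PLIN1 had 1.28, 0.836 and 0.468 FPKM. Of the blood and liver markers, APOA1 had 2.09, 4.98 and 2.27 FPKM and TTR, the gene of a plasma carrier, had 2.33, 4.47 and 0.133 FPKM, a 33.7-fold late-over-peak difference in the order of the complement genes.

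The genes whose pattern over the 3 libraries was most like each complement gene were sought among protein-coding genes with at least 1 FPKM in every library and a mean FPKM within 2-fold. Likeness was the root mean square difference between 2 genes of log2(FPKM + 1), each centred on its mean. With 3 libraries this describes a profile and is no evidence of a relation. C1QA was closest to LAPTM5 (33.1, 60.8 and 16.8 FPKM, a difference of 0.04), then to C1QC (0.07) and MMP14 (0.08). LAPTM5 was also among the 3 nearest genes of C1QC and of C1QB, and MMP14 was the nearest of C1QC. C1QB was closest to LOC102178586 (0.07) and PLTP (0.09), and C1S to LGALS1, with 71.1, 137 and 47.4 FPKM and a difference of 0.02.

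C1R was closest to LOC100860813, PSMB10 and SDC4, which had differences of 0.04, 0.06 and 0.06. PSMB10 had 14.6, 34.4 and 8.004 FPKM. For CFB the nearest were PDE4B (0.05), LOC102176375 (0.09) and LRP2 (0.09), of which PDE4B had 7.34, 25.5 and 3.11 FPKM. CFI had no near match, with differences of 0.15 for LOC102175177, at 8.17, 45.3 and 1.11 FPKM, and of 0.27 for CCL5, a chemokine gene, at 10.8, 32.8 and 2.003 FPKM.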

How the data were processed

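Mammary gland RNA pooled from 5 goats per stage was sequenced as 1 library per stage. Per the study's methods, the authors mapped trimmed reads with TopHat2 2.0.9, assembled transcripts with Cufflinks 2.1.1 and Cuffmerge, and computed FPKM with Cuffdiff. The deposited FPKM cover 50041 loci in 3 columns, assigned to stages by the sample labels. Of the values with 7 digits, 97.5% end in 5, as means of pairs of 6-digit values do, and what was averaged is not given in the sources used here.

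From these FPKM, loci with the same NCBI gene ID were summed, and symbols came from the RefSeq gene table (assembly ARS1.2). Genes were counted as apart at a ratio of at least 2, with an FPKM of 0 set to 0.001. No test was run, since each stage has 1 library. Shares of genes refer to protein-coding genes above 0 in either library. The complement genes, the lists of pathway genes and markers, and the neighbour comparison were chosen with earlier results of these data known. All complement genes chosen by name are given. Of the other complement genes those with at least 1 FPKM and a 2-fold difference, and the 5 most abundant, were to be named, and of the other lists up to 3 of the most abundant; further genes were named after their values were seen. Some genes that this rule would name are not reported here. The lists of regulators and acute phase proteins are in the closing section. Sequences were not used here. Fold counting was tested on simulated data. Alternatives were other thresholds, pseudocounts of 0.1 and 1, a filter of 1 FPKM, the most abundant locus of a gene, 3 other scalings and exchanged peak and late labels. Python 3.11.15, numpy 2.4.6, pandas 2.3.3 and matplotlib 3.10.9 were used.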

Additional observations from a re-analysis of the deposited data

How the results depend on the processing

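At a ratio of at least 1.5, the complement genes apart numbered 7 for peak over early and 7 for late over early, and at a ratio of at least 4 they numbered 1, 1 and, for late over peak, 3. With FPKM divided by the upper quartile of protein-coding genes, 6 were apart for peak over early, and divided by the protein-coding sum 7 were apart for peak over early and 2 for late over early. Of the other complement genes, 3, 1 and 6 were apart at a ratio of at least 4 for peak over early, late over early and late over peak, and 8 at 1.5 for late over early. With a pseudocount of 1, 0 were apart for late over early and 6 for late over peak, and with one of 0.1, 3 for late over early. Divided by the protein-coding sum, 11 were apart for peak over early and 3 for late over early. The stricter or looser thresholds and the pseudocounts change these counts by construction.

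Exchanging the peak and late labels reversed each direction of the 7 complement genes and their medians. Of the other complement genes, 0 were then higher and 5 lower for peak over early, against 2 and 5. The log2 ratios of peak over early became -1.50 for CFB, -2.56 for CFI, -1.04 for C1QA, -1.18 for C1QB, -0.88 for C1QC, -0.68 for C1R and -0.62 for C1S, with a median of -1.04. Those of late over early became 1.78, 2.16, 0.87, 0.89, 0.97, 1.32 and 0.91, with a median of 0.97, and those of late over peak 3.27, 4.73, 1.91, 2.07, 1.85, 1.99 and 1.53, with a median of 1.99. Under all other settings tried the 24 log2 ratios, medians included, kept their direction, and the largest shift was 0.79, with the protein-coding sum. No paired analysis was possible because the stages hold single pooled libraries, and no replicate could be left out. The paper gives the clean reads of each library, but the number of reads behind each FPKM is unknown.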

Other observations

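Genes known to act on complement expression, described here as values only, differed among themselves. Of 12 such cytokine and transcription factor genes 9 had values, and 5 of the 9 were at least 2-fold lower in the late- than in the peak-labelled library, against 17.4% of all protein-coding genes. IRF1, an interferon-induced transcription factor, had 14.2, 39.1 and 6.55 FPKM in the early-, peak- and late-labelled libraries, the order of the complement genes, and the proportion of CFB to IRF1 was 0.387, 0.482 and 0.297. TNF, the gene of an inflammatory cytokine, had 0.637, 2.34 and 0.395 FPKM. STAT3, which carries signals of the IL6 family, had 41.3, 40.9 and 38.6 FPKM, and RELA, an NF-kappaB subunit, had 13.1, 11.6 and 12.2 FPKM.

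Acute phase and milk defence genes did not follow the complement genes as a group. Of 11 listed, 6 had values, and between the late- and peak-labelled libraries 3 were at least 2-fold higher and 2 lower, against 8.56% and 17.4% of all protein-coding genes. LTF, the lactoferrin gene, had 1074, 556 and 75.3 FPKM, so its lowest level was in the late-labelled library and its highest in the early-labelled one. PIGR, which carries antibodies into milk, had 521, 195 and 585 FPKM, and LCN2, an iron-sequestering defence protein gene, had 39.9, 15.7 and 35.1 FPKM. FGG, a fibrinogen chain gene, had 21.0, 3.05 and 22.4 FPKM, and CP, the ceruloplasmin gene, had 0.986, 3.47 and 0.358 FPKM as the sum of 2 loci.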
